A study of Mus musculus with 12 samples.

Results

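The genes described here are 10 glutathione-dependent enzymes of the mouse forestomach: the glutathione peroxidases Gpx1, Gpx2, Gpx3 and Gpx4, and the glutathione transferases Gsta3, Gsta4, Gstm1, Gstm2, Gsto1 and Mgst1. They were chosen by name, and every array probe that carries 1 of these gene names was taken, which gave 13 probes for 10 genes of the 41174 probes and 21276 gene names on the array. Gsta3, Gstm1 and Mgst1 had 2 probes each, and the single Gsta4 probe was printed in 10 spots. All 13 probes were well above background in both dye channels on all 8 arrays with scanner data, and all 10 genes passed the filter on dim probes.

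Whole forestomach RNA of wild-type adult mice, strain C57BL/6J, was hybridised to 12 two-colour arrays, 4 in each of 3 groups. The 40-week group had drunk 15% alcohol over that time, with no saccharin named in its labels. The 4-week group had drunk 20% alcohol in supersaccharin. The controls had drunk supersaccharin without alcohol. Every array carried forestomach RNA in Cy5 and the same commercial pool, Agilent's Universal Mouse Reference RNA, in Cy3, with no dye swap, so the measured quantity is a log2 ratio of forestomach to reference RNA. The labels name no sex, do not say that replicates are separate animals, and give the 40-week mice no controls of their own, so a p-value reflects how these particular samples vary, and some of that variation may be technical. The comparisons with control ask whether drinking alcohol changes these transcripts, and the remaining one sets the alcohol groups against each other.

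Glutathione is the main small thiol of the cell. Glutathione peroxidases use it to reduce hydrogen peroxide and lipid peroxides to water and alcohols, and several of them carry selenium in the active site. Glutathione transferases join it to reactive electrophiles, among them aldehydes formed when membrane lipids are oxidised, so that these can be exported from the cell. Alcohol drinking is known to raise the load of acetaldehyde and of oxidised lipids in tissues of the upper digestive tract.

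Several arrays stood apart. Pancreas marker genes reached a median log2 ratio of 6.95 in control replicate 3, while the other controls stood at 0.31 to 2.58. Glandular stomach markers had a median of 3.62 in 4-week replicate 2 and 5.22 in control replicate 4, and adipocyte markers were low in 4-week replicate 3 (0.92) and in control replicate 1 (2.83). Xist, expressed from the inactive X, had mean ratios of 1.29 in 40-week replicate 3 and 0.97 in 40-week replicate 4, against -6.67 to -4.39 in the other 10 samples. Ddx3y, another sex-chromosome gene, ran the other way, at -4.24 and -4.07 in those replicates and 0.50 to 1.45 in the other 10 samples. All 12 squamous epithelium markers, which define the lining of the forestomach, were well above background on the 8 arrays. The median net Cy5 signal of a 4-week array was 42.4 to 112 and that of a control array 112 to 151. The 4-week arrays lay on 1 slide and the control arrays on another, so slide and group cannot be told apart.

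The probes are shown because what an array reports depends on which stretch of a transcript it reads. Positions are as listed for the array, on mouse build mm9. Whole probes follow for Gpx1 (chr9:108242276-108242335), Gpx4 (chr10:79518691-79518842), Gsta4 (chr9:78046172-78047344) and the brighter Mgst1 probe (chr6:138104741-138104800). The Gpx4 and Gsta4 probes cover listed spans of 152 and 1173 bases with 60 bases of sequence, so their letters are not contiguous in the genome. Whether a probe lies in coding sequence was not annotated in the tables used here.
Gpx1: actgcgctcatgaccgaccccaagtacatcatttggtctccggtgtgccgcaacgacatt
Gpx4: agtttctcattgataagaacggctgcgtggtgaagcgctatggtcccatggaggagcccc
Gsta4: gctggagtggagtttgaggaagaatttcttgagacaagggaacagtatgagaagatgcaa
Mgst1: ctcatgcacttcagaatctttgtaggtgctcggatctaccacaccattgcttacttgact

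The last 30 bases of 4 further probes follow, for the 2 genes with the largest differences, Gpx2 (chr12:77893402-77893431, minus strand) and Gpx3 (chr11:54723466-54723495, plus strand), and for the neighbouring paralogs Gstm1 (chr3:107815180-107815209) and Gstm2 (chr3:107784622-107784651), both on the minus strand. Capitals mark the letters AATAAA, the usual polyadenylation signal, which was found in 2 of the 13 probes and in 4.78% of all 41174 probes.
Gpx2: ttcacagaatgatggcatcttcctaaaccc
Gpx3: aaaggaaacacaagttctaggtccaatggt
Gstm1: tctgtctcgtctacAATAAAgtctgaaaca
Gstm2: cccatttggttctcAATAAAgtgtgaatca

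The brighter Gstm1 probe and the Gstm2 probe thus both hold those letters near their 3′ end. The other Gstm1 probe starts 384 bases away.

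In the deposited ratios 9 of the 10 genes were higher in control forestomach than in the reference RNA. Gpx2, the peroxidase of gastrointestinal epithelium, averaged 6.97 ± 0.33 in controls (log2 ratio, SD, n = 4), and Gpx3, a secreted peroxidase of plasma, averaged 5.34 ± 0.35. Gpx4, the peroxidase that reduces lipid hydroperoxides within membranes, averaged -1.24 ± 0.28, so its signal was weaker than that of the reference. These ratios rank a gene against its own level in the pool and give no order of abundance between genes.

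**Figure D1:**
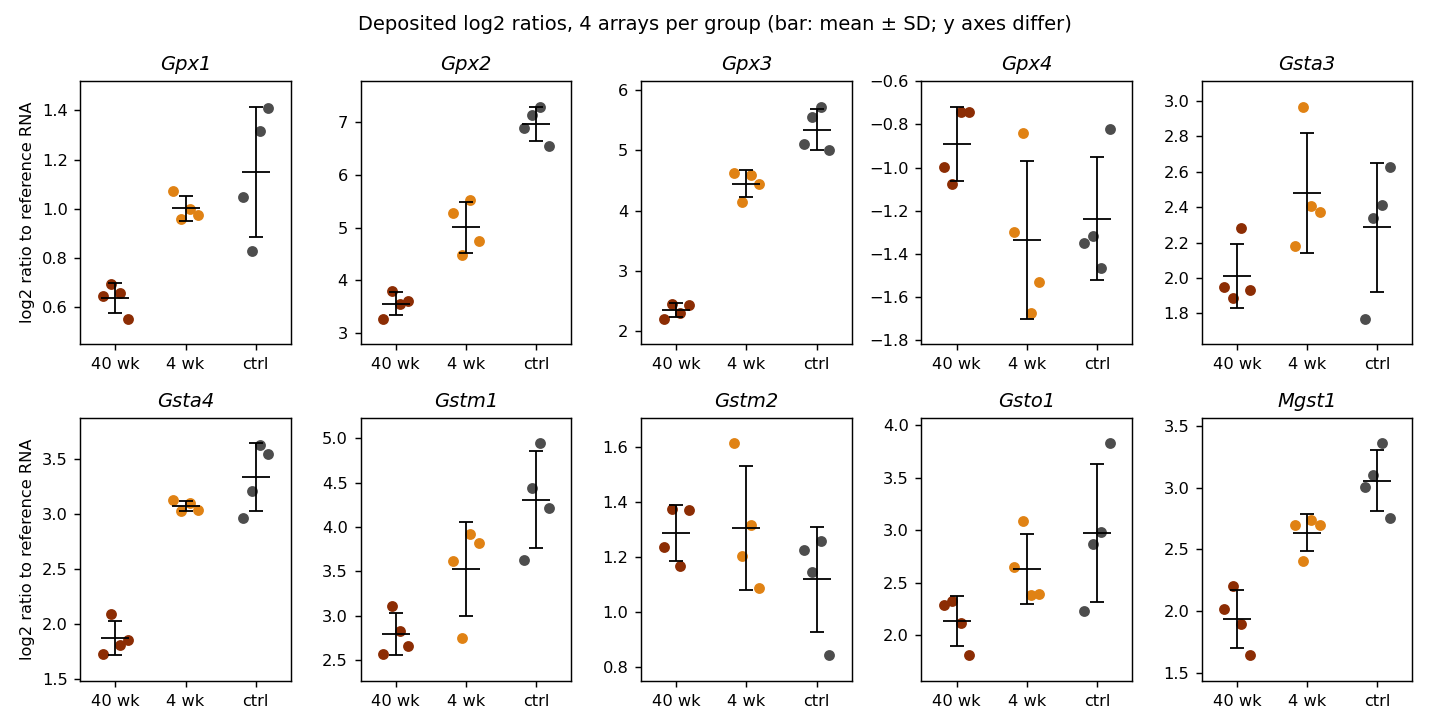
Deposited log2 ratio of forestomach to reference RNA (y axis, own scale in each panel) for the 10 genes in the 40-week, 4-week and control samples (x axis), 1 point per array with the mean and SD of 4. For Gpx2 the 40-week samples lie at 3.27 to 3.80, the 4-week samples at 4.48 to 5.52 and the controls at 6.55 to 7.30, with no overlap.

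After 4 weeks of 20% alcohol, Gpx2 was lower in the ratio to the reference and was the single gene of the 10 that passed the test. Its log2 ratios were 5.29, 4.50, 5.52 and 4.77 in the 4-week samples, against 6.82, 7.08, 7.24 and 6.47 in controls. The groups did not overlap, and the ratio fell by 1.88 ± 0.25 (SE, n = 4 against 4; limma adjusted p = 0.0344), a 3.69-fold difference. One call among 10 genes stands beside a background of 0.825% of 20724 genes called lower in this comparison, and 229 genes were called in either direction (1.1%), with 0.28% called higher. The call was lost when any 1 array other than 4-week replicate 3 was left out, at adjusted p from 0.0556 to 0.104, and held without that replicate at 0.0451, while the change stayed between -2.05 and -1.71. It was also lost with median centring (-2.11, adjusted p = 0.051), with arrays scaled to the same spread (-1.28, adjusted p = 0.248), without the arrays high in other organs' markers (adjusted p = 0.0569) and without those low in adipocyte markers (adjusted p = 0.0874).

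Gpx3 showed the next largest difference among the peroxidases. Its log2 ratios were 4.37, 3.98, 4.28 and 3.98 in the 4-week samples, against 4.46, 5.12, 5.28 and 4.68 in controls. These groups did not overlap either, and the change was -0.73 ± 0.20, which did not pass (limma adjusted p = 0.111). Gpx2 and Gpx3 were thus 2 of 10 genes whose 4-week samples all lay below the controls, where 6.25% of all genes did so. With no background correction the Gpx3 change was -0.91 and passed (limma adjusted p = 0.0404), with the scanner's processed signals it was -0.92 (adjusted p = 0.0456), and in the deposited ratios -0.90 (adjusted p = 0.0134). With arrays scaled to the same spread it was -0.26 ± 0.28 (adjusted p = 0.69), and adjusted p ran from 0.0134 to 0.69 over all settings.

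Gpx1 and Gpx4, the peroxidases of most cell types, did not pass. Gpx1, which reduces hydrogen peroxide in the cytosol, had 1.11, 1.01, 1.05 and 1.07 in the 4-week samples, against 1.02, 0.80, 1.30 and 1.38 in controls, a change of -0.06 ± 0.14 (limma adjusted p = 0.862). Its 4-week values lay within the control range. Gpx4 changed by -0.04 ± 0.21 (adjusted p = 0.942), and its groups overlapped.

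None of the 6 transferases passed the test at 4 weeks in the ratio. Gstm1, a mu-class enzyme, had 3.66, 2.81, 3.99 and 3.95 in the 4-week samples, against 3.59, 4.40, 4.92 and 4.18 in controls, a change of -0.67 ± 0.33 (limma adjusted p = 0.327). The groups overlapped, and 4-week replicate 2 was the lowest array. Its other probe did not share the direction, with a change of 0.22 ± 0.23 (adjusted p = 0.659).

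Mgst1, a transferase and peroxidase held in membranes, changed by -0.36 ± 0.15 at its brighter probe (limma adjusted p = 0.254) and by 0.06 ± 0.22 at the other (adjusted p = 0.915, over all 30455 kept probes, of which 0.755% were called). Gsta4, the alpha-class enzyme that conjugates hydroxynonenal, changed by -0.25 ± 0.15 (adjusted p = 0.434), and Gsto1, an omega-class enzyme that also reduces dehydroascorbate, by -0.24 ± 0.31 (adjusted p = 0.73). Gsta3 and Gstm2 were the 2 genes on the higher side, at 0.17 ± 0.22 and 0.24 ± 0.15 (adjusted p = 0.73 and 0.447). The 2 Gsta3 probes gave nearly the same change. Over the 10 genes, 3 had an unadjusted p under 0.05 (Gpx2, Gpx3 and Mgst1), where 18% of all genes did. Of the 10, 8 were lower and the median change was -0.25, beside -0.02 over all genes.

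Because the reference RNA should be the same on every array, the channels were also compared apart. For Gpx2 it was the reference channel that differed between the groups. Its Cy3 signal above local background was 6556, 10196, 4548 and 7206 on the 4-week arrays, against 3131, 1891, 1780 and 2319 on the control arrays. Its Cy5 signal was 131999, 170266, 104557 and 54548 on the 4-week arrays, against 158266, 189096, 226719 and 133583 on the control arrays. The Cy3 values did not overlap, and the Cy5 values did.

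After quantile normalisation of each channel by itself, Gpx2 changed by 0.17 ± 0.16 in Cy5 (limma adjusted p = 0.634) and rose by 1.88 ± 0.20 in Cy3 (adjusted p = 0.00138). To 2 decimals the Cy3 rise was as large as the fall of the ratio. The ratio and the channels were normalised in different ways, however, so these changes need not add up. Before normalisation the mean Gpx2 signal of the 4-week arrays was 0.65 times that of controls in Cy5 and 3.13 times in Cy3. With each array's 75th percentile in place of quantiles, the Cy5 change of Gpx2 was -0.03.

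**Figure D2:**
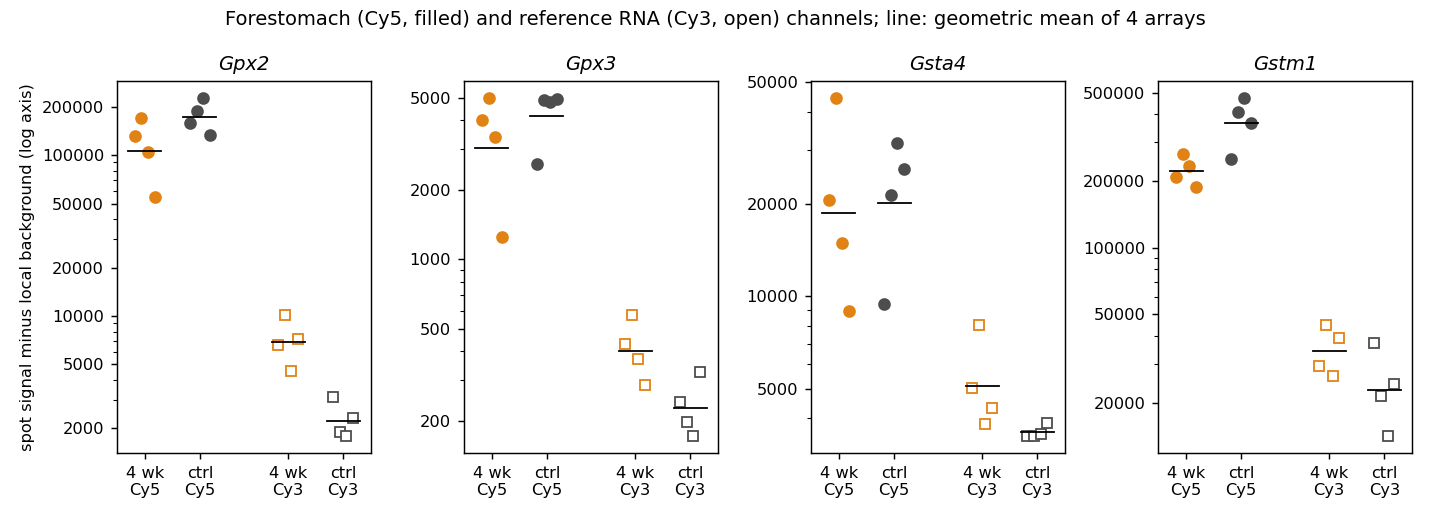
Signal above local background on a log axis for Gpx2, Gpx3, Gsta4 and Gstm1 in Cy5 (forestomach, filled circles) and Cy3 (reference RNA, open squares), with 4-week arrays to the left of control arrays in each channel and a line at the geometric mean of 4. The Gpx2 Cy3 signals are 4548 to 10196 on the 4-week arrays and 1780 to 3131 on the control arrays.

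Gpx3 and Gsta4 were also brighter in the reference channel of the 4-week arrays. Gpx3 had Cy3 signals of 428, 576, 371 and 286 on the 4-week arrays, against 242, 198, 171 and 326 on the control arrays. It rose by 0.91 ± 0.17 in normalised Cy3 (limma adjusted p = 0.0138) and changed by 0.27 ± 0.16 in Cy5 (adjusted p = 0.447). Gsta4 rose by 0.77 ± 0.16 in Cy3 (adjusted p = 0.0241). That Gsta4 call was lost without 4-week replicate 1 and without any 1 of the controls, at adjusted p from 0.0541 to 0.0718, and with the 75th percentile in place of quantiles (0.78, adjusted p = 0.0581).

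Gsta4 also had the largest Cy5 difference of the 10 genes, 0.65 ± 0.26, which did not pass (limma adjusted p = 0.26). Before normalisation its Cy5 signals were 20579, 44397, 14944 and 8963 on the 4-week arrays, against 9470, 21367, 31743 and 25987 on the control arrays. They overlapped widely, with a ratio of the group means of 1.00, and 4-week replicate 2 was the brightest. After normalisation the log2 signals overlapped less, at 14.15 to 15.09 on the 4-week arrays and 13.32 to 14.26 on the control arrays.

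In Cy3, 3 of the 10 genes were called higher, where 5.98% of all genes were, and 8.66% were called in either direction. In 4 of the 10 (Gpx2, Gpx3, Gsta4 and Gstm2) the 4-week arrays all lay above the control arrays in normalised Cy3 (10.1% of all genes). In 1, Gpx4, they all lay below (9.93%). Before normalisation Gpx2 alone of the 4 lay above, and Gpx3 and Gsta4 overlapped. Gstm2 then lay below, at 22777 to 27117 against 27354 to 31313. In Cy5, 0 of the 10 were called by limma, where 0.367% of all genes were, and 1 of the 10, Gsta4, had an unadjusted p under 0.05, where 16.3% of all genes did. At its brighter probe Gstm1 was 0.85 ± 0.24 higher in Cy3 (adjusted p = 0.0583) with 0.03 ± 0.16 in Cy5 (adjusted p = 0.945). It passed in Cy3 without 4-week replicate 3 or without control replicate 1. The other Gstm1 probe changed by 0.24 ± 0.11 in Cy3 (limma adjusted p = 0.213) and by 0.51 ± 0.17 in Cy5 (adjusted p = 0.206). The probes thus differed in which channel changed more. Gpx4 was called lower in Cy3 without 4-week replicate 3, at -0.25 (adjusted p = 0.0335). Why the reference channel differed was not tested.

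**Figure D3:**
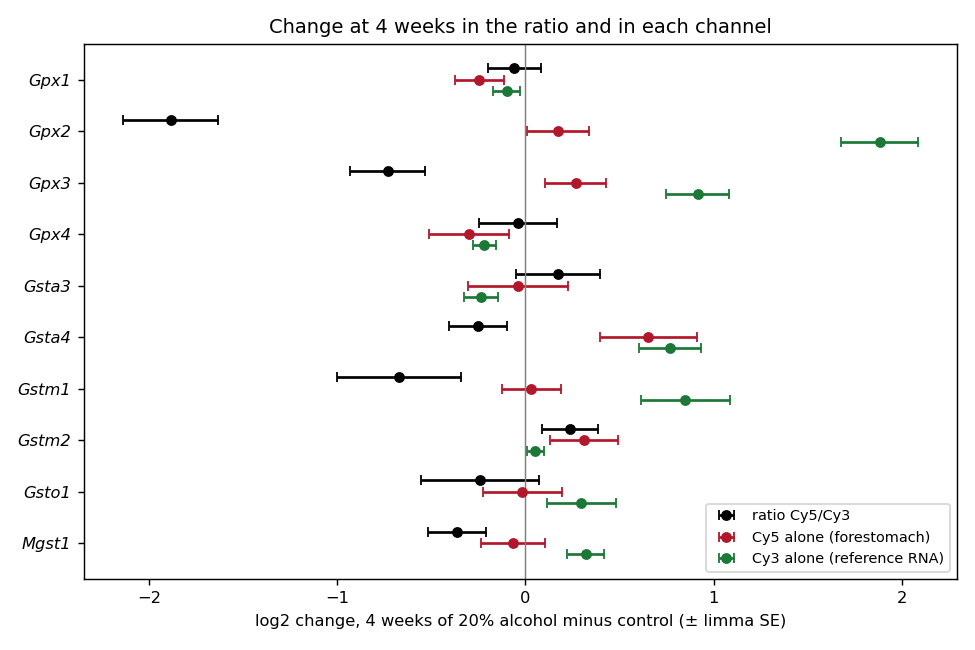
Log2 change at 4 weeks of 20% alcohol against control (x axis, with limma's SE) for each of the 10 genes (y axis) in the ratio, in Cy5 alone and in Cy3 alone. For Gpx2 the ratio stands at -1.88 and Cy3 at 1.88, while Cy5 stands at 0.17.

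Markers of several cell types were also lower in the ratio and higher in Cy3 at 4 weeks. All 12 squamous epithelium markers were lower in the ratio, 4 of them called, with a median change of -0.98. Their median change was 0.10 in Cy5 and 1.20 in Cy3, where 9 of 12 were called higher. Their median ratio was 3.48 to 4.77 in the 4-week samples and 5.57 to 6.10 in controls. Their summed Cy5 signal, without normalisation, was 921161 to 1681350 on 4-week arrays and 1722630 to 2622810 on control arrays. Those sums also carry the lower Cy5 signal of the 4-week arrays as a whole, given above. Of 8 smooth muscle markers, 3 were called lower in the ratio (median -0.77) and 7 were called higher in Cy3 (median 0.76). Of 8 macrophage markers, 5 were lower and 3 higher in the ratio (median -0.40), and 1, C1qc, was called lower. In Cy3, 5 of them were higher and 3 lower (median 0.34), and 4 were called higher. Pancreas markers went another way, with all 8 tested lower in the ratio (median -1.91) and in Cy3 (median -1.04), and 0 called in either. The part of these cell types in the Gpx2 result was not tested. In whole tissue, fewer cells of a type and less RNA per cell cannot be told apart.

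After 40 weeks of 15% alcohol, 7 of the 10 genes were lower than in controls in the deposited ratios, namely Gpx1, Gpx2, Gpx3, Gsta4, Gstm1, Gsto1 and Mgst1. Gpx4, Gsta3 and Gstm2 did not pass. Of the 7, Gpx2, Gpx3 and Gsta4 also passed under both rescalings of the arrays given further on, and the other 4 did not. This stands beside a background of 23.7% of 20724 genes called lower, 18.9% called higher and 42.6% called in either direction, with 8820 genes in all. In 6 of the 10 the groups did not overlap, where 23.6% of all genes lay wholly below the controls. The median change of the 10 was -0.98, beside -0.08 over all genes.

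The peroxidases Gpx2 and Gpx3 differed most. Gpx2 had deposited log2 ratios of 3.27, 3.80, 3.54 and 3.61 in the 40-week samples, against 6.90, 7.15, 7.30 and 6.55 in controls. The groups were far apart, and Gpx2 fell by 3.42 ± 0.24 (limma adjusted p = 1.65e-06).

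Gpx3 had 2.21, 2.46, 2.30 and 2.43 in the 40-week samples, against 5.11, 5.55, 5.73 and 4.999 in controls. It fell by 3.00 ± 0.17 (limma adjusted p = 8.23e-07), or 7.98-fold. In both genes the gap between the groups was wider than the range within either.

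Gpx1 had 0.65, 0.70, 0.66 and 0.55 in the 40-week samples, against 1.05, 0.83, 1.32 and 1.41 in controls. It fell by 0.51 ± 0.13 (limma adjusted p = 0.00831), with no overlap. Gpx4 lay on the higher side, with -0.998, -1.08, -0.74 and -0.74 in the 40-week samples, against -1.35, -1.32, -1.46 and -0.82 in controls. Its change of 0.35 ± 0.20 did not pass (adjusted p = 0.174), and control replicate 4 lay within the 40-week range.

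Among the transferases, Gstm1 and Gsta4 fell most. Gstm1 had 2.56, 3.104, 2.82 and 2.66 in the 40-week samples, against 3.63, 4.44, 4.94 and 4.22 in controls. It fell by 1.52 ± 0.30 (limma adjusted p = 0.0018), and its other probe fell by 1.02 ± 0.22 (adjusted p = 0.0032, where 42.2% of all kept probes were called), so both Gstm1 probes shared the direction at 40 weeks.

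Gsta4 had 1.73, 2.09, 1.81 and 1.86 in the 40-week samples, against 2.97, 3.21, 3.63 and 3.55 in controls. It fell by 1.47 ± 0.15 (limma adjusted p = 1.78e-05), with no overlap. Mgst1 had 2.02, 2.20, 1.89 and 1.64 in the 40-week samples, against 3.01, 3.103, 3.36 and 2.76 in controls. It fell by 1.12 ± 0.16 (adjusted p = 2.1e-04), and its other probe fell by 1.48 ± 0.24 (adjusted p = 0.00053).

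Gsto1 was the weakest call. It had 2.29, 2.33, 2.12 and 1.81 in the 40-week samples, against 2.23, 2.87, 2.98 and 3.83 in controls, and the groups overlapped. It fell by 0.84 ± 0.29 (limma adjusted p = 0.0341). The call was lost without 40-week replicate 1, 3 or 4 and without control replicate 2, 3 or 4, at adjusted p from 0.0527 to 0.0924.

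Gsta3, an alpha-class enzyme, changed by -0.27 ± 0.21 (limma adjusted p = 0.31), and its other probe by -0.64 ± 0.26 (adjusted p = 0.0612). Gstm2, the neighbour of Gstm1, had 1.24, 1.38, 1.17 and 1.37 in the 40-week samples, against 1.23, 1.15, 1.26 and 0.84 in controls, a change of 0.17 ± 0.14 (adjusted p = 0.355). Gstm1 and Gstm2 thus lay on opposite sides of 0, though only Gstm1 passed.

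The 40-week arrays differed from the others in scale. The standard deviation of the deposited ratios over all probes was 1.02 to 1.08 on the 40-week arrays and 1.52 to 1.73 on the control arrays, and no scanner data of the 40-week arrays were used here. When every array was scaled to the same spread, Gpx2 still fell by 1.39 ± 0.28 (limma adjusted p = 0.00247), Gpx3 by 1.57 ± 0.19 (adjusted p = 1.54e-04) and Gsta4 by 0.44 ± 0.15 (adjusted p = 0.0358). With quantile normalisation between arrays they fell by 1.12, 1.47 and 0.59.

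The other 4 calls ended under both of these scalings. Gstm1 changed by -0.06 and -0.05, Mgst1 by -0.11 and -0.28, Gpx1 by -0.17 and -0.23, and Gsto1 by 0.22 and 0.09, with the same-spread value first. Gstm2 passed on the higher side under both scalings, at 0.71 ± 0.14 and 0.56 ± 0.14 (limma adjusted p = 0.00195 and 0.00953). Gsta3 did so at 0.66 ± 0.21 and 0.50 ± 0.18 (adjusted p = 0.0282 and 0.0424), and Gpx4 turned to -0.12 and -0.19. The split of calls was therefore 2 higher and 3 lower under both scalings, against 0 higher and 7 lower as deposited. Over all 20724 genes, 3870 were called higher and 4088 lower with the same spread, and 3622 and 4248 with quantiles.

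**Figure D4:**
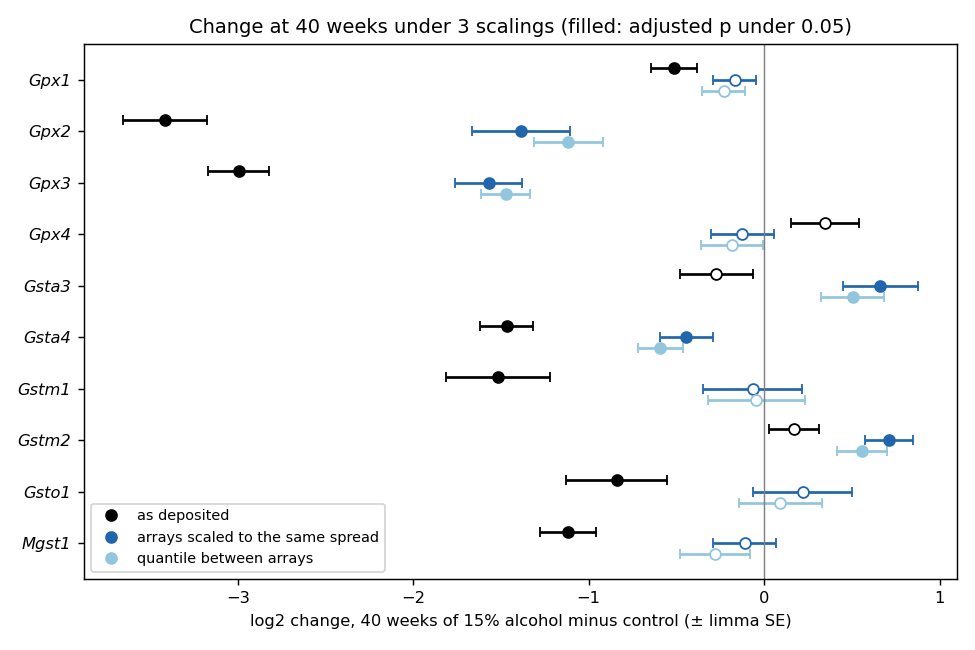
Log2 change at 40 weeks of 15% alcohol against control (x axis, with limma's SE) for the 10 genes (y axis) in the ratios as deposited, with arrays scaled to the same spread, and with quantile normalisation between arrays. Filled points passed at an adjusted p under 0.05. Gpx2, Gpx3 and Gsta4 are lower in all 3, and Gstm2 and Gsta3 pass on the higher side after scaling.

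In Xist and Ddx3y, 40-week replicates 3 and 4 differ from the other samples. Leaving them out gave -3.43 ± 0.32 for Gpx2, -3.01 ± 0.24 for Gpx3 and -1.43 ± 0.20 for Gsta4. The Gpx1 and Gsto1 calls ended (limma adjusted p = 0.0756 and 0.217). Without the 3 arrays high in pancreas or glandular stomach markers the fit likewise ended the Gpx1 and Gsto1 calls, at -0.30 (adjusted p = 0.0899) and -0.41 (adjusted p = 0.16), and kept the other 5.

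Marker genes of several cell types were lower too. At 40 weeks all 12 squamous epithelium markers were called lower than in controls with a median change of -2.10, as were all 8 smooth muscle markers with a median of -1.93. Of 8 macrophage markers 7 were called lower and 1, Cd68, higher (median -1.84), and all 4 red blood cell markers tested were called lower (median -1.91). The median ratio of the squamous markers was 2.85 to 3.22 in the 40-week samples and 5.57 to 6.10 in controls. Gpx2 and Gpx3 changed by more than each of these 4 medians, and the other 8 genes by less. Single markers reached further than the medians. Crct1 (-4.42), Myh11 (-3.55), Lor (-3.50) and Ivl (-3.42) changed by as much as Gpx2 or more, and the other markers of these lists by less. The part of cell makeup in these results was not tested. Cohort, drinking solution and any difference in age or in array processing cannot be told apart from alcohol. The Xist and Ddx3y values that set 40-week replicates 3 and 4 apart occurred in no control sample.

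Set directly against 4 weeks of 20% alcohol, 40 weeks of 15% alcohol had lower ratios of Gpx1, Gpx2, Gpx3, Gsta4 and Mgst1, 5 of the 10 genes, where 23% of all genes were called lower and 41.6% in either direction. In 6 of the 10 the 40-week samples all lay below the 4-week samples, where 25% of all genes did so. This comparison shares the 40-week samples with the one above and the 4-week samples with the one before it. The median change of the 10 genes was -0.60, beside -0.08 over all genes.

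The deposited Gpx3 ratios were 2.21, 2.46, 2.30 and 2.43 at 40 weeks, against 4.62, 4.14, 4.60 and 4.44 at 4 weeks. Gpx3 fell by 2.10 ± 0.17 (limma adjusted p = 1.6e-05). Gpx2 fell by 1.45 ± 0.24 (adjusted p = 6.89e-04), with 3.27 to 3.80 at 40 weeks and 4.48 to 5.52 at 4 weeks.

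Gsta4 fell by 1.20 ± 0.15 (limma adjusted p = 1.37e-04), and its 4-week values lay close together, at 3.03 to 3.13. Mgst1 fell by 0.70 ± 0.16 (adjusted p = 0.0046). Gpx1 fell by 0.36 ± 0.13 (adjusted p = 0.0426), a call that was lost when any 1 of the 40-week or 4-week arrays was left out, at adjusted p from 0.0612 to 0.0983. Without 40-week replicates 3 and 4 the Gpx1 and Mgst1 calls ended (adjusted p = 0.205 and 0.0717). Gstm1 changed by -0.74 ± 0.30 (adjusted p = 0.0641) and passed without 4-week replicate 2, at -0.9997 (adjusted p = 0.0121), and without control replicate 1 or 3. Gpx4 passed on the higher side without 4-week replicate 2, at 0.61 (adjusted p = 0.0187), and Gsta3 on the lower side without control replicate 1 (adjusted p = 0.0471). The other probes of Gstm1 and Gsta3 passed with all arrays, at -1.20 ± 0.22 and -0.84 ± 0.26 (adjusted p = 0.00125 and 0.0196), where 43% of all kept probes were called.

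With arrays scaled to the same spread, Gpx3 fell by 0.73 ± 0.19 (limma adjusted p = 0.0101), and Gstm2 rose by 0.56 ± 0.14 (adjusted p = 0.00681). Gpx2 turned to 0.40 ± 0.28 (adjusted p = 0.276), and Mgst1 to 0.29. With quantile normalisation Gpx3 fell by 1.20 ± 0.14 (adjusted p = 1.08e-04) and Gsta4 by 0.49 ± 0.13 (adjusted p = 0.0101), while Gpx2 stood at 0.00. Gpx3 was the 1 gene of the 10 that was called lower at 40 weeks in both comparisons as deposited and under both scalings.

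Gpx2 has a pseudogene copy, Gpx2-ps1, with a probe of its own. That probe had deposited ratios of 3.18 to 3.66 in the 40-week samples, 5.17 to 6.12 in the 4-week samples and 6.10 to 6.46 in controls. The 40-week samples lay below both other groups, and the 4-week and control ranges overlapped slightly. In the scanner ratios the 4-week samples, at 4.65 to 5.13, all lay below the controls, at 5.38 to 5.96. The copy's Cy5 signal above local background was 1603 to 2541 on the 4-week arrays and 3498 to 6816 on the control arrays. Its Cy3 signal was 78 to 200 and 129 to 170, and these overlapped, unlike those of the Gpx2 probe. These signals are not normalised, and Cy5 was lower on the 4-week arrays as a whole. How far either probe also reads the other transcript was not tested. The 10 Gsta4 spots of an array differed with a standard deviation of 0.07 to 0.23 on the log2 scale.

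The other genes of glutathione and peroxide metabolism were counted from 4 lists. At 4 weeks in the ratio, 1 of 32 measured genes of glutathione synthesis, recycling and export was called higher and 1 lower, and 0 were called by limma among 26 other peroxidases and transferases, 37 peroxiredoxin, thioredoxin and other NRF2 target genes, and 26 genes of selenoprotein synthesis. In those 3 lists 1, 8 and 6 genes had an unadjusted p under 0.05, where 18% of all genes did. Gclm, which encodes the modifier subunit of glutamate-cysteine ligase, rose by 0.71 ± 0.13 (limma adjusted p = 0.0428). Ggt6, of the gamma-glutamyl transferase family, fell by 1.03 ± 0.15 (adjusted p = 0.0344), with a Cy3 rise of 0.64 ± 0.14 (adjusted p = 0.0245). In Cy5 alone 0 genes of the 4 lists were called by limma. By list, 10, 3, 5 and 5 genes had an unadjusted p under 0.05 there, where 16.3% of all genes did.

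In Cy3 alone, 1 of 32, 0 of 26, 4 of 37 and 2 of 26 genes of these lists were called higher at 4 weeks, where 5.98% of all genes were, and 1 gene was called lower. Blvrb, a biliverdin reductase, was 0.65 ± 0.17 higher, Cbr3, a carbonyl reductase, 0.58 ± 0.11, Sesn2, a stress-induced sestrin, 0.40 ± 0.08, and Msrb1, a selenoprotein that repairs methionine sulfoxide, 0.38 ± 0.08. Gstm7, another mu-class transferase, was lower by -0.34 ± 0.07.

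At 40 weeks against control, 3 synthesis and export genes were called higher and 10 lower of 32, with a median change of -0.26. Of the 26 other peroxidases and transferases 1 was called higher and 10 lower, with a median of -0.44. Of the peroxiredoxin and NRF2 target list 8 rose and 8 fell of 37 (median 0.07), and of the selenoprotein list 5 rose and 7 fell of 26 (median 0.09), beside a median of -0.08 over all genes. Over all genes 18.9% were called higher and 23.7% lower.

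These list counts are for the ratios as deposited and were not drawn up under the rescalings. The 6 called list genes with the largest changes were all lower. The alpha-class transferases Gsta2 and Gsta1 fell by 2.22 ± 0.26 and 2.00 ± 0.35 (limma adjusted p = 4.81e-05 and 9.11e-04). Probes of closely related alpha-class transferases can share signal. Cbr3 fell by 1.92 ± 0.20, Ggt6 by 1.80 ± 0.15, Idh1, a cytosolic source of NADPH, by 1.64 ± 0.17, and the mu-class Gstm6 by 1.60 ± 0.18 (adjusted p from 3.35e-06 to 3.81e-05).

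At 40 weeks against 4 weeks, 0 synthesis and export genes were called higher and 12 lower of 32, 1 higher and 14 lower of the 26 other peroxidases and transferases, 5 higher and 6 lower of 37, and 2 higher and 6 lower of 26. Over all genes 23% were called lower and 41.6% in either direction. Sod3, the secreted superoxide dismutase, changed by -2.29 ± 0.35, G6pd2, a retrogene of glucose-6-phosphate dehydrogenase, by -1.70 ± 0.29, and Idh1 by -1.69 ± 0.17. Gsta2 changed by -1.56 ± 0.26, Ltc4s, the synthase that joins glutathione to a leukotriene, by -1.49 ± 0.47, and Sephs2, which makes the selenium donor of selenoprotein synthesis, by -1.49 ± 0.15. Limma adjusted p ran from 3.66e-05 to 0.0238 over these 6.

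The genes whose deposited ratios were most like those of each called member were taken by Pearson's correlation over the 12 samples, a description in which the differences between groups and the shared arrays count. For Gpx2 these were Rab25, a small GTPase of epithelia (r = 0.998), Evpl, the cornified envelope protein envoplakin (r = 0.998), and Tmem40 (r = 0.997). For Gpx3 they were the protease gene Klk6, the adhesion molecule Chl1 and the carboxylesterase Ces1d (r = 0.995 to 0.996). For Gsta4 they were Ston2, Capn9 and Vstm5 (r = 0.986 to 0.991), for Mgst1 2810408A11Rik, Aadacl2fm1 and Hyal4 (r = 0.976 to 0.982), and for Gstm1 Pycard, Efna4 and Lce1a2 (r = 0.967 to 0.970). For Gpx1 they were Adi1, Capza2 and Gcsh (r = 0.944 to 0.945), and for Gsto1 the microsomal transferase Mgst3, Gm13352 and Creb3l4 (r = 0.921 to 0.924).

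Among the 10 genes themselves, deviations from the group means over the 12 samples ran together for Gpx2 and Gpx3 (r = 0.86), for Gpx3 and Gstm1 (r = 0.81) and for Gsto1 and Gsta3 (r = 0.75). They ran opposite for Mgst1 and Gpx4 (r = -0.82) and for Gpx4 and Gpx2 (r = -0.69). These values share arrays and normalisation and are given without a test.

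Promoter windows of 250 bases before to 50 bases after the start site were matched in RefSeq's table, build GRCm38.p6, for 9 of the 10 genes. They were searched on both strands for TGACNNNGC, the core of the antioxidant response element through which NRF2 acts on many transferase genes. A match was found for 2 of the 9 genes, Gsta3 and Mgst1, and 14% of 27025 genes in the table held one (12.4% of 32851 windows). The 60 bases round each match follow, with the match in capitals. They lie at chr1:21240439-21240498 and chr6:138140446-138140505, on the plus strand, and the Mgst1 match reads on the opposite strand.
Gsta3: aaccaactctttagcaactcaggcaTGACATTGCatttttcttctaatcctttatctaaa
Mgst1: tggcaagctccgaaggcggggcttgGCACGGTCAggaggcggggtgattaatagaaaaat

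The first base of the match stands at -121 from the start site in Gsta3 and at -56 in Mgst1. In the deposited ratios Mgst1 was lower and Gsta3 did not pass at 40 weeks against control, as given above.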

How the data were processed

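For the 4-week and control groups the 8 scanner files, written by Agilent's Feature Extraction software, were read. Per the file headers they give each spot's mean signal and its median local background as intensity, and log10 ratios of processed signals. The software is 10.7.3.1 in the headers and 9.1 in the submitters' processing notes. The 40-week arrays were taken from the value table, in which the authors deposited log2 ratios of Cy5 over Cy3; how those arrays were processed is not given in the sources used here. Spot flags of 0 or 1 (other values) were taken as deposited.

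In R 4.3.3 with limma 3.58.1, signals were corrected by normexp (offset 50) and loess within each array. Control and outlier spots were left out, and spots of a probe were averaged. A probe was kept (30455 in all) where Cy5 was well above background on 3 or more arrays of the 4-week or control group, and the brightest probe stood for each gene (20724 genes). The 4-week comparison used lmFit and eBayes on the 8 arrays. Comparisons with 40 weeks, and the 4-week contrast where it is given in deposited ratios, used the deposited log2 ratios of all 12. Each channel was also fitted alone after quantile normalisation. Adjusted p-values are Benjamini-Hochberg values over all genes, called under 0.05. Scripts were tested on simulated data. The number of arrays limits the precision.

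The 10 genes, the lists and the markers were chosen with earlier results of these data known. Beyond the 10 genes, the text names up to 6 called list genes with the largest change per comparison, and the 3 genes most correlated with each called member. Xist, Ddx3y, Gpx2-ps1 and markers were named after their values were seen. Replicate numbers, which follow slide position, did not pair 4-week with control samples (correlations of deviations 0.32, -0.48, 0.14 and -0.26), so the fits have no replicate block. Alternatives covered background, normalisation, spread, filter, source, block, and left-out arrays.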

Additional observations from a re-analysis of the deposited data

Results flagged for a closer look

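In 39 groups of 4 deposited ratios (13 probes in 3 groups), 2 held a sample far from the other 3, and chance gives such a gap in about 1 of 20 groups. The brighter Mgst1 probe read 2.41 in 4-week replicate 2, below 2.70 to 2.74 in the other 4-week samples. The brighter Gsta3 probe read 2.28 in 40-week replicate 3, above 1.89 to 1.95 in the other 40-week samples.

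The alcohol groups differed from each other by limma in 5 of the 10 genes, where 41.6% of all genes were called in either direction. The 40-week minus 4-week differences in deposited log2 ratio were -2.10 for Gpx3, -1.45 for Gpx2, -1.20 for Gsta4, -0.70 for Mgst1 and -0.36 for Gpx1. The smaller spread of the 40-week arrays moved with all 5, and of them Gpx3 alone stayed called both with arrays scaled to the same spread and with quantiles.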

How the results depend on the processing

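The number of arrays, with 4 per group, limits the precision, and the 40-week ratios have no channels to check. In the 4-week ratio limma called 229 genes. No gene was called with the replicate block, median centring, arrays scaled to the same spread, without arrays high in other organs' markers or without arrays low in adipocyte genes (0 genes and 0 of the 10 each), where 3796, 2820, 3104, 4574 and 2447 genes had an unadjusted p under 0.05. Without background correction 554 genes were called, with the scanner's processed signals 669 and with the authors' deposited ratios 1245, each with 2 of the 10; 36.2% and 39.4% of the calls were higher in the last pair of settings, against 25.3%. The fit of the deposited ratios took in all 12 arrays, so its count differs from the 229 in more than the source of the values. Leaving out 1 array gave 0 to 52 genes and 0 to 1 of the 10.

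The replicate block, under which Gpx2 had limma adjusted p = 0.0818 in the ratio and Gpx3 0.0513 in Cy3, left 0 genes called in Cy5 (3948 with an unadjusted p under 0.05) and 1165 in Cy3. With the 75th percentile 7 genes were called in Cy5, where 100% were higher against 78.9%, and 468 in Cy3, where 96.8% were higher against 69.1%. Without background correction 121 were called in Cy5. Leaving out 1 array gave 0 to 21 genes in Cy5, and 644 to 2298 genes and 2 to 5 of the 10 in Cy3. Without 40-week replicates 3 and 4, 5054 genes were called against control, and 4673 genes and 3 of the 10 against 4 weeks. Against 4 weeks 2 of the 10 were called with the same spread and 3 with quantiles, where 8456 and 8328 of 20724 genes were.

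Directions turned as follows, and the cause was not tested. In the 4-week ratio, median centring gave -0.13 for Gstm2 and -0.069 for Gsta3. The same spread gave 0.088 for Gsta4, 0.039 for Gsto1 and 0.063 for Gpx1. Leaving out arrays high in other organs' markers gave 0.0023 for Gsta4, 0.039 for Gsto1 and 0.17 for Gpx1, and leaving out those low in adipocyte genes 0.039 for Gpx4. The other probe gave 0.22 for Gstm1 and 0.061 for Mgst1. Without 1 array, Gsto1 ran from -0.49 to 0.040, Gpx4 from -0.20 to 0.096 and Gpx1 from -0.17 to 0.025. In Cy5 the 75th percentile gave -0.046 for Gstm1 and -0.029 for Gpx2, and the other probe 0.49 for Gsta3 and 0.093 for Mgst1; without 1 array Gstm1 ran from -0.079 to 0.10, Gsta3 from -0.29 to 0.10, Mgst1 from -0.17 to 0.046 and Gsto1 from -0.13 to 0.16. In Cy3 the other Gsta3 probe gave 0.23.

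At 40 weeks against control, the same spread and quantiles gave 0.22 and 0.091 for Gsto1, -0.12 and -0.19 for Gpx4, and 0.66 and 0.50 for Gsta3. Against 4 weeks they gave 0.56 and 0.28 for Gsto1, 0.56 and 0.39 for Gstm2, -0.051 and -0.12 for Gpx4, 0.65 and 0.36 for Gstm1, 0.40 and 0.0017 for Gpx2, and 0.53 and 0.25 for Gsta3, and the same spread gave 0.29 for Mgst1. Without 1 array Gstm2 ran from -0.091 to 0.084 there.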
